A study of Mus musculus with 7 samples.

Results

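The Sprouty and Spred genes encode intracellular inhibitors of receptor tyrosine kinase signalling. The family was taken as the 7 gene symbols Spry1, Spry2, Spry3, Spry4, Spred1, Spred2 and Spred3 among the 24421 symbols in the count files, and each paralog was compared between Cic knockout and control cerebellum. All 7 symbols were present, and 6 had enough reads to be tested; Spry3 was listed at 0 in every library. RNA from whole cerebellum of C57BL/6 mice was sequenced in 4 libraries titled CicKO, of genotype En1-Cre; Cicflox/flox, and 3 libraries titled Wildtype, of genotype Cicflox/+. The Wildtype libraries therefore carry 1 floxed Cic allele and, as labelled, no Cre. Any effect of carrying En1-Cre and the loss of Cic thus cannot be told apart. Cre under En1, which is switched on early in the region that forms midbrain and cerebellum, recombines floxed DNA in cells that expressed it and in their descendants, and other cells of the cerebellum keep both Cic alleles. Age, sex and litter are not stated, nor is it stated that each library came from a separate animal, so p-values measure the spread between these libraries, which may be technical.

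Receptor tyrosine kinases, such as those for fibroblast growth factors and neurotrophins, activate Ras, which leads to activation of the kinase ERK. Sprouty proteins are made in response to this signal and dampen it between the receptor and ERK, through a cysteine-rich domain at their C-terminal end. Spred proteins share that domain, carry an EVH1 domain at the other end, and bring neurofibromin, the Ras-inactivating protein encoded by Nf1, to the membrane. In the embryonic mouse, Sprouty genes are expressed around the FGF8 source at the midbrain-hindbrain boundary from which the cerebellum develops. Cic encodes a transcriptional repressor whose repression of target genes is relieved by ERK activity.

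Cic itself was lower in every CicKO library, at 144 to 147 CPM against 216 to 257 CPM in the Wildtype libraries (log2 fold change -0.66, SE 0.0622, edgeR adjusted p = 0.00256). CPM are library-size-scaled counts (TMM), and they cover the whole gene, including exons outside the floxed part. Values after ± are SDs over n = 4 CicKO and n = 3 Wildtype libraries. Depth was 102653765 to 121285349 gene counts. CicKO 3 and Wildtype 3 stood apart from the other libraries in choroid plexus transcripts, with a mean log2 CPM over 11 markers of 6.28 and 5.64, against 0.169 to 0.891 in the other CicKO and 0.485 to 1.06 in the other Wildtype libraries. Markers of cerebellar neurons were abundant: Gabra6, a receptor subunit of cerebellar granule cells, averaged 679 CPM in CicKO and 755 CPM in Wildtype libraries, and the Purkinje cell gene Pcp2 averaged 147 CPM in CicKO and 128 CPM in Wildtype libraries.

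The promoters of 5 members could be read, and 2 of them held the letters of the CIC binding octamer. RefSeq promoter windows on build GRCm38.p6, from 250 bases before to 50 bases after a gene's start, were matched by symbol for Spry1, Spry2, Spred1, Spred2 and Spred3. They were searched on both strands for the octamers TGAATGAA, TGAATGGA, TCAATGAA and TCAATGGA. The 250 bases before the start of Spred3 and of Spry2 are shown because these are the windows with a match, and 1 of the genes rose in the knockout while the other did not pass the test. Spred3 is read on the minus strand of chr7:29168648-29168897 and Spry2 on the minus strand of chr14:105896820-105897069, with the matched octamer in capitals.
Spred3: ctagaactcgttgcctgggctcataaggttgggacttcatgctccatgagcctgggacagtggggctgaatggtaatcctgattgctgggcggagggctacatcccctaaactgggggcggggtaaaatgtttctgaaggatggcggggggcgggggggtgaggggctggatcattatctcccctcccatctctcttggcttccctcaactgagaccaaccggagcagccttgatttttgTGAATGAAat
Spry2: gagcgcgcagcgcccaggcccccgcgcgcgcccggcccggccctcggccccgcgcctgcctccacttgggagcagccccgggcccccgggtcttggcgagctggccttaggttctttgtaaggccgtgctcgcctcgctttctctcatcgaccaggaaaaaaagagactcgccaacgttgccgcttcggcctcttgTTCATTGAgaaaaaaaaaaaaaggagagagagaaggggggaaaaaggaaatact

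The match of Spred3 reads TGAATGAA in the gene's direction and begins 10 bases before the RefSeq start. That of Spry2 lies 54 bases before the start and reads TTCATTGA, the reverse complement of TCAATGAA. The RefSeq start of Spred3 lies 1764 bases inside the outermost start that GENCODE M21 gives the gene, so the window shows 1 of several possible promoters. Of all 32851 windows of that length 3.84% held an octamer. By gene, an octamer was present for 25 of the 146 genes called higher in CicKO that had a window (17.1%), for 3 of 109 called lower (2.75%) and for 386 of all 12542 tested (3.08%). A match describes letters only, and the windows of Spry1, Spred1 and Spred2 held none.

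Of the 6 testable members, Spry4 and Spred3 were higher in CicKO cerebellum and 0 were called lower by edgeR, DESeq2 or limma-voom. At an unadjusted p below 0.05, 3 members were higher and 0 lower, where 8.06% of all genes tested were higher and 8.16% lower. The threshold was an adjusted p of 0.05 in edgeR's quasi-likelihood test over all 16905 genes tested, and 2.08% of those passed, 1.25% higher and 0.828% lower. DESeq2 called 3 members higher (Spry4, Spred3 and Spred1), with 4.01% of all genes higher and 2.97% lower, and limma-voom called Spry4 and Spred3, with 1.18% higher and 0.828% lower. Spry4 and Spred3 had the 8th and 3rd smallest p of all genes. The libraries of both groups did not overlap for 3 members (Spry4, Spred3 and Spred1, each higher in CicKO), which was the case for 15.4% of all genes tested, 7.06% with CicKO higher and 8.36% with CicKO lower. The 4 CicKO libraries lie above the 3 Wildtype libraries for these 3 genes in the plot of levels by library.

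**Figure D1:**
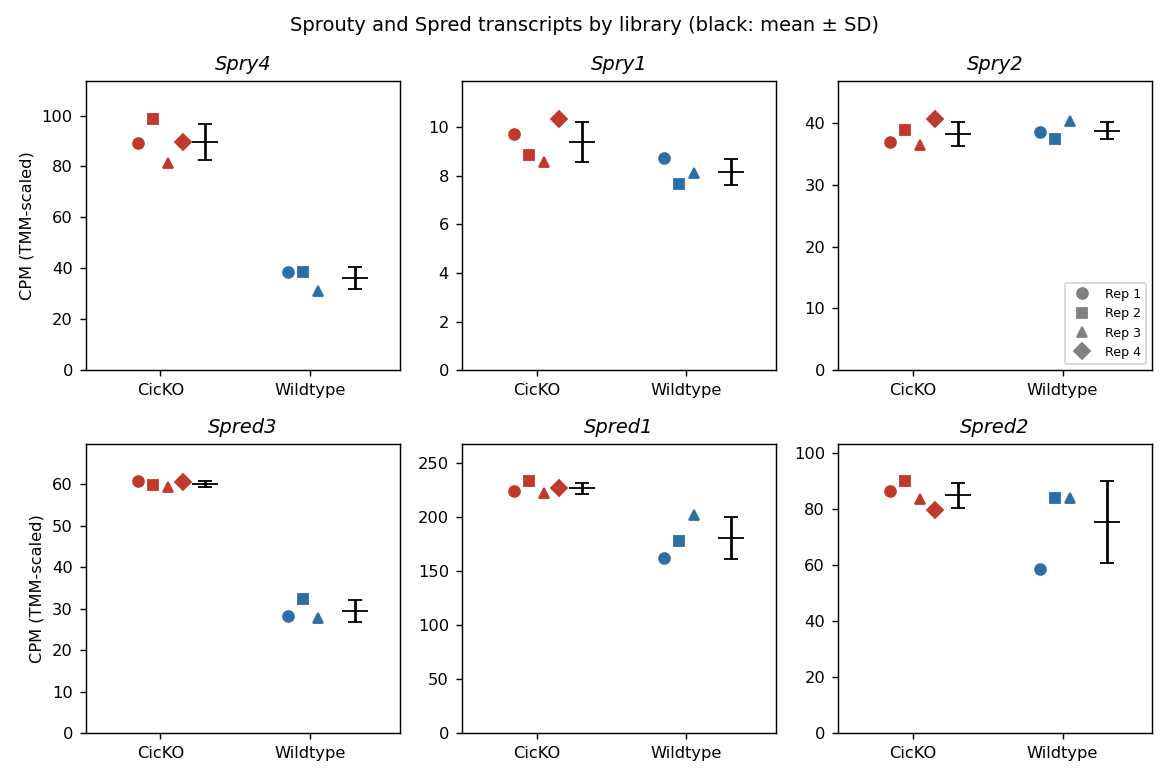
CPM (TMM-scaled, linear axis from 0) of the 6 tested genes in each CicKO (red, n = 4) and Wildtype (blue, n = 3) library, with symbols for the replicate number in the label and the mean ± SD in black. Spry4 and Spred3 are far apart between groups, Spred1 is apart by a small gap, and Spry1, Spry2 and Spred2 overlap.

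Among the Sprouty genes, only Spry4 passed the test. Spry4, which restrains growth-factor signalling to ERK and lies on chromosome 18, was at 89.2, 98.7, 81.5 and 89.5 CPM in CicKO libraries 1 to 4, against 38.6, 38.7 and 31.1 CPM in Wildtype libraries 1 to 3. The lowest CicKO library was thus above the highest Wildtype library by more than the whole range within either group. Its level was 2.48-fold higher (89.7 ± 7.05 against 36.1 ± 4.35 CPM, SD; log2 fold change 1.31, SE 0.0949, edgeR adjusted p = 0.000973). Its log2 fold change stayed between 1.22 and 1.37 under every alternative, with a largest adjusted p of 0.0323.

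Spry2, an inhibitor induced by fibroblast growth factor that binds the ubiquitin ligase CBL and the adaptor GRB2, did not pass the test. It lies on chromosome 14 at 105891947 to 105896819 on the minus strand (GRCm38). It was at 37.0, 38.9, 36.4 and 40.7 CPM in CicKO libraries and 38.5, 37.5 and 40.3 CPM in Wildtype libraries, and the ranges overlap almost completely. Its log2 fold change was -0.02 with a 95% interval of -0.15 to 0.11 (edgeR adjusted p = 0.905), an interval that leaves out a change of the size seen for Spry4.

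Spry1, known in the mouse for limiting growth-factor signalling in the developing kidney, was the least abundant of the tested members. It lies on chromosome 3 at 37639947 to 37644598 on the plus strand. It was at 9.73, 8.84, 8.55 and 10.3 CPM in CicKO libraries and 8.73, 7.66 and 8.09 CPM in Wildtype libraries. The lowest CicKO library fell below the highest Wildtype library, and the log2 fold change of 0.20 (95% interval -0.02 to 0.42) was not called (edgeR adjusted p = 0.365). GENCODE M21 places an unconfirmed transcript, Gm42922, on the opposite strand over 710 bases of its exons, and without a stated strand setting reads from both cannot be told apart.

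Spry3 had 0 counts in all 7 libraries, where 3 counts would be 0.0245 to 0.0295 CPM. GENCODE M21 puts Spry3 on a scaffold outside the assembled chromosomes. The files list 8 protein-coding genes that the annotation places on such scaffolds only, and all 8 were at 0 in every library, among them Vamp7, which encodes a vesicle fusion protein found in many cell types. Of the 19902 protein-coding genes on chromosomes, 12.4% were at 0 throughout. The 0 for Spry3 is therefore given as listed and not as a measured absence.

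Spred3 was the only Spred gene called by edgeR and limma-voom; DESeq2 called Spred1 as well. Spred3 is a Spred that lacks a working KIT-binding domain and lies on chromosome 7 at 29158829 to 29170411 on the minus strand. Cic lies on the same chromosome at 25267704 to 25294159, where the groups differ in floxed alleles by design. Any effect on Spred3 of DNA linked to the floxed allele cannot be told apart from the loss of Cic and was not tested. Spred3 was at 60.7, 59.8, 59.4 and 60.5 CPM in CicKO libraries and 28.3, 32.4 and 27.7 CPM in Wildtype libraries. The CicKO values lay within a very narrow range, and every one of them was above all Wildtype values. Spred3 was 2.04-fold higher (60.1 ± 0.624 against 29.5 ± 2.56 CPM, SD; log2 fold change 1.03, SE 0.0628, edgeR adjusted p = 0.000458), with a log2 fold change of 0.91 to 1.10 and a largest adjusted p of 0.0103 over all alternatives. The gene Ggn overlaps 202 bases of its exons on the opposite strand, but was at only 0.998 to 1.37 CPM in CicKO and 1.00 to 1.08 CPM in Wildtype libraries and was not called (log2 fold change 0.24, adjusted p = 0.527).

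Spred1, the Spred gene mutated in the human disorder Legius syndrome, sat between Spred3 and Spred2 in the size of its change. It lies on chromosome 2 at 117121374 to 117182279 on the plus strand. It was at 224, 233, 222 and 227 CPM in CicKO libraries and 162, 177 and 201 CPM in Wildtype libraries, so the groups did not overlap but the Wildtype libraries were widely spread. The log2 fold change was 0.33 (SE 0.0711, 95% interval 0.17 to 0.49) and missed the threshold (edgeR adjusted p = 0.0617). It passed in DESeq2 (adjusted p = 0.000833), without CicKO 3 (adjusted p = 0.0437), without Wildtype 3 (0.0362) and without both (0.0143), and ranged from 0.000833 to 0.379 over all alternatives.

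Spred2, which with Spred1 restrains ERK signalling in many tissues of the mouse, lies on chromosome 11 at 19924375 to 20024026 on the plus strand. It was at 86.5, 89.9, 83.5 and 79.6 CPM in CicKO libraries and 58.5, 83.9 and 84.0 CPM in Wildtype libraries. Wildtype 1 alone was low, and the other Wildtype libraries lay within the CicKO range. The log2 fold change was 0.17 (95% interval -0.11 to 0.45, edgeR adjusted p = 0.547), or 0.02 without Wildtype 1.

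Paralogs changed unequally within both subfamilies. For each library the log2 CPM of 1 paralog was subtracted from that of another, which removes library scaling, and the difference was compared between groups by an exact two-sided permutation over the 35 splits into 4 and 3 libraries. The smallest p this allows is 0.0286, and p-values were adjusted over all 6 pairs within a subfamily. These splits ignore the replicate numbers, although same-numbered libraries were positively correlated across genes once group means were subtracted, most strongly those numbered 3. Exchanging labels only within the 3 shared numbers could give no p below 0.25, so the p-values below hold only for freely exchangeable libraries. Spry4 minus Spry1 averaged 3.26 ± 0.157 in CicKO and 2.14 ± 0.197 in Wildtype libraries (difference 1.12, exact p = 0.0286, adjusted 0.0429). Spry4 minus Spry2 averaged 1.23 ± 0.0961 in CicKO and -0.11 ± 0.230 in Wildtype libraries (difference 1.34, exact p = 0.0286, adjusted 0.0429). Thus Spry4 was higher relative to either tested relative in 4 of 4 CicKO libraries than in any Wildtype library. Between libraries of the same number, CicKO minus Wildtype was 1.05 to 1.31 for Spry4 minus Spry1 and 1.27 to 1.54 for Spry4 minus Spry2.

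The same held for Spred3 against its relatives. Spred3 minus Spred1 averaged -1.91 ± 0.0338 in CicKO and -2.61 ± 0.220 in Wildtype libraries (difference 0.70, exact p = 0.0286, adjusted 0.0429). Spred3 minus Spred2 averaged -0.50 ± 0.0790 in CicKO and -1.34 ± 0.278 in Wildtype libraries (difference 0.84, exact p = 0.0286, adjusted 0.0429). Between libraries of the same number, CicKO minus Wildtype was 0.49 to 0.96 for Spred3 minus Spred1 and 0.54 to 1.11 for Spred3 minus Spred2. The remaining pairs did not pass: Spry1 minus Spry2 differed by 0.22 (exact p = 0.0571, adjusted 0.0686), with the lowest CicKO library at -2.135 and the highest Wildtype library at -2.139, and Spred1 minus Spred2 by 0.15 (exact p = 0.2, adjusted 0.2).

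**Figure D2:**
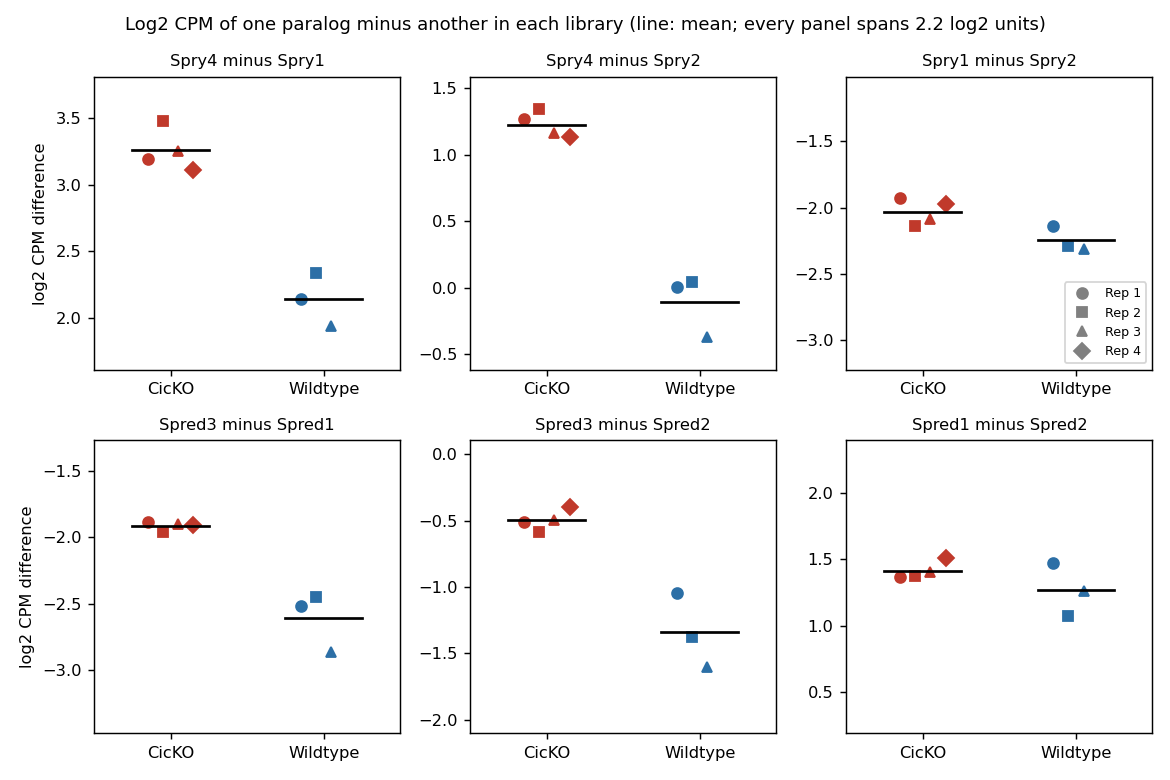
Log2 CPM of 1 paralog minus another (vertical axis, log2 units, each panel spanning the same range) in each CicKO (red) and Wildtype (blue) library, with group means as lines. The groups are well apart in the 4 panels with Spry4 or Spred3, nearly touch for Spry1 minus Spry2 (-2.135 to -1.925 in CicKO, -2.312 to -2.139 in Wildtype libraries) and overlap for Spred1 minus Spred2.

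Levels of different genes were compared per length, as CPM per kilobase of merged exons in GENCODE M21. In CicKO libraries Spred1 was highest at 33.3 ± 0.713, followed by Spry4 (18.9 ± 1.48), Spred2 (18.4 ± 0.947) and Spry2 (18.3 ± 0.934), whose ranges overlap one another. Spred3 (9.67 ± 0.10) and Spry1 (3.22 ± 0.282) came below them, each apart from its neighbours in that order. In Wildtype libraries Spred1 was also highest at 26.6 ± 2.91, Spry2 (18.6 ± 0.673) and Spred2 (16.3 ± 3.18) overlapped, and Spry4 (7.60 ± 0.916), Spred3 (4.74 ± 0.412) and Spry1 (2.81 ± 0.185) followed without overlap. Spry4 thus overlapped Spry2 in CicKO cerebellum and lay below it in every Wildtype library.

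The make-up of the Sprouty transcript pool shifted towards Spry4. Spry4 made up 44.9% to 48.9% of the length-scaled sum of Spry1, Spry2 and Spry4 in CicKO libraries, and 22.9% to 28.3% in Wildtype libraries, while Spry2 made up 43.9% to 46.6% in CicKO and 62.4% to 67.4% in Wildtype libraries. The sum itself was 40.4 ± 2.23 CPM per kilobase in CicKO and 29.0 ± 0.520 in Wildtype libraries, and of its difference in means of 11.4 the part of Spry4 was 11.3. These shares and sums follow from the levels above and were not tested.

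In the Spred pool, where Spred3 is the least abundant transcript, the shift was smaller. Spred3 made up 15.2% to 16.1% of the summed Spred genes in CicKO and 8.51% to 11.1% in Wildtype libraries. The Spred sum was 61.4 ± 1.42 CPM per kilobase in CicKO and 47.6 ± 5.82 in Wildtype libraries. Of the difference in means of 13.7, Spred1 contributed 6.78, Spred3 4.93 and Spred2 2.04, and the part of Spred2 turned on Wildtype 1, the low library. Without it the difference was 10.5, of which Spred1 contributed 5.45, Spred3 4.84 and Spred2 0.204.

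**Figure D3:**
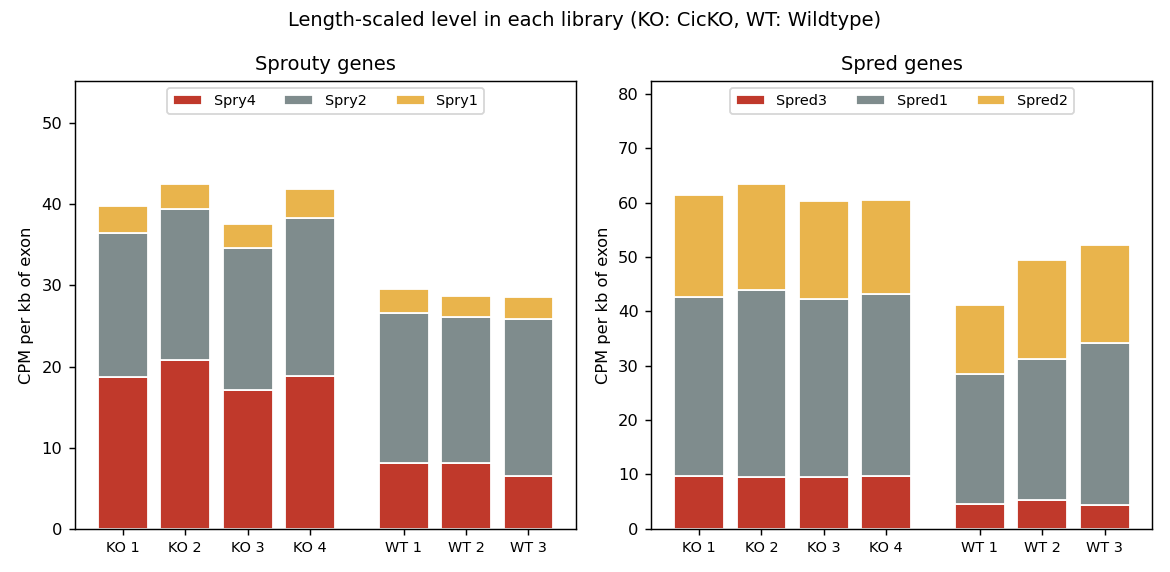
Stacked bars of CPM per kilobase of exon (linear axis from 0) for the 3 tested Sprouty genes (left) and the 3 Spred genes (right) in each library; KO stands for CicKO and WT for Wildtype. The red Spry4 part is between 17.1 and 20.8 in CicKO and between 6.54 and 8.14 in Wildtype libraries, and the red Spred3 part is between 9.55 and 9.77 in CicKO and between 4.45 and 5.21 in Wildtype libraries.

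Among other genes of the pathway, Igf1r, Nf1, Dusp4 and Dusp6 passed the test in edgeR. Across 5 lists of receptors, ligands, partners, other inhibitors and EVH1 domain genes, 80 of 82 members were tested, 4 were called higher (5.0%, against 1.25% of all genes) and 0 lower by edgeR, and the median log2 fold change was -0.02, against -0.004 over all genes tested. DESeq2 called 8 higher (10.0%, against 4.01% of all genes) and 4 lower (5.0%, against 2.97%), namely Cblb, Dusp5, Dusp7 and Errfi1. Limma-voom called 4 higher (5.0%, against 1.18% of all genes) and 0 lower (against 0.828%). At an unadjusted p below 0.05, 11 were higher (13.8%, against 8.06% of all genes) and 8 lower (10.0%, against 8.16%). Among the 20 other inhibitors of the pathway 2 were called by edgeR, the ERK phosphatases Dusp4 (32.6 ± 4.90 CPM in CicKO, 10.1 ± 1.83 CPM in Wildtype libraries, log2 fold change 1.69) and Dusp6 (51.2 ± 3.18 CPM in CicKO, 24.7 ± 2.39 CPM in Wildtype libraries, log2 fold change 1.05). Dusp4 was not called when the no-feature share of reads was a covariate (log2 fold change 1.52, adjusted p = 0.0691), the only 1 of 17 alternatives to end its call. The median over that list was 0.005, and Dusp7, a phosphatase of the same class, had -0.25 (edgeR adjusted p = 0.0755; -0.24 in DESeq2, adjusted p = 0.00720).

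Among 17 binding partners of Sprouty and Spred proteins, Nf1 was the only one called by edgeR and limma-voom. It was called higher, as were 1.25% of all genes in edgeR and 1.18% in limma-voom. DESeq2 called Cblb as well, which was lower, as were 2.97% of all genes. Nf1, whose product Spred proteins recruit, averaged 168 ± 3.81 CPM in CicKO and 134 ± 3.90 CPM in Wildtype libraries (log2 fold change 0.32, SE 0.0411, edgeR adjusted p = 0.00884). The call was lost without CicKO 1 (adjusted p = 0.0502) or Wildtype 3 (0.0541) and with Xist (0.0504) or the no-feature share of reads (0.103) in the fit, and held under 13 of 17 alternatives; where it was lost, the log2 fold change was 0.30 to 0.33. The list's median was -0.04. Cblb, a ubiquitin ligase related to CBL, had -0.26 (edgeR adjusted p = 0.0559; -0.25 in DESeq2, adjusted p = 0.00166), and the adaptor gene Grb2 and the exchange factor gene Sos1 were not called by edgeR, DESeq2 or limma-voom.

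Of 18 receptor kinases, edgeR and limma-voom each called 1 higher, where 1.25% and 1.18% of all genes were called higher. DESeq2 called 3 higher (Igf1r, Kit and Fgfr1), where 4.01% of all genes were. By these tools 0 receptors were called lower. At an unadjusted p below 0.05, 4 receptors were higher and 2 lower, where 8.06% of all genes were higher and 8.16% lower. Igf1r, the receptor of insulin-like growth factor, averaged 129 ± 1.85 CPM in CicKO and 93.6 ± 5.20 CPM in Wildtype libraries (log2 fold change 0.46, SE 0.0467, edgeR adjusted p = 0.00303). With the no-feature share of reads in the fit its log2 fold change was 0.41 (adjusted p = 0.0691). The receptor list had a median log2 fold change of -0.02; Kit, the receptor of stem cell factor, had 0.23 (edgeR adjusted p = 0.0993; DESeq2 0.00457), and Fgfr1, a receptor for fibroblast growth factors, 0.16 (edgeR adjusted p = 0.146; DESeq2 0.0148). Of the 17 tested ligands, 0 were called by edgeR or limma-voom. DESeq2 called 1 higher, the vascular growth factor Vegfa, where 4.01% of all genes were called higher. At an unadjusted p below 0.05, 3 ligands were higher and 1 lower, where 8.06% of all genes were higher and 8.16% lower. The median log2 fold change of the ligands was -0.08. The 3 smallest adjusted p-values in edgeR belonged to Vegfa (0.31, adjusted p = 0.0618), Gdnf, which supports neurons (-0.72, 0.183), and Egf, the epidermal growth factor (0.36, 0.263).

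Of the 8 EVH1 domain genes outside the Spred family, 0 were called by edgeR or limma-voom. DESeq2 called 1 higher, where 4.01% of all genes were called higher. At an unadjusted p below 0.05, 1 was higher and 1 lower, where 8.06% of all genes were higher and 8.16% lower. The median of the 8 genes was 0.02. The gene called by DESeq2 was Vasp, a regulator of actin filaments (0.31, edgeR adjusted p = 0.135), followed by its relative Enah (-0.13, 0.192) and the postsynaptic scaffold gene Homer1 (-0.28, 0.408).

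**Figure D4:**
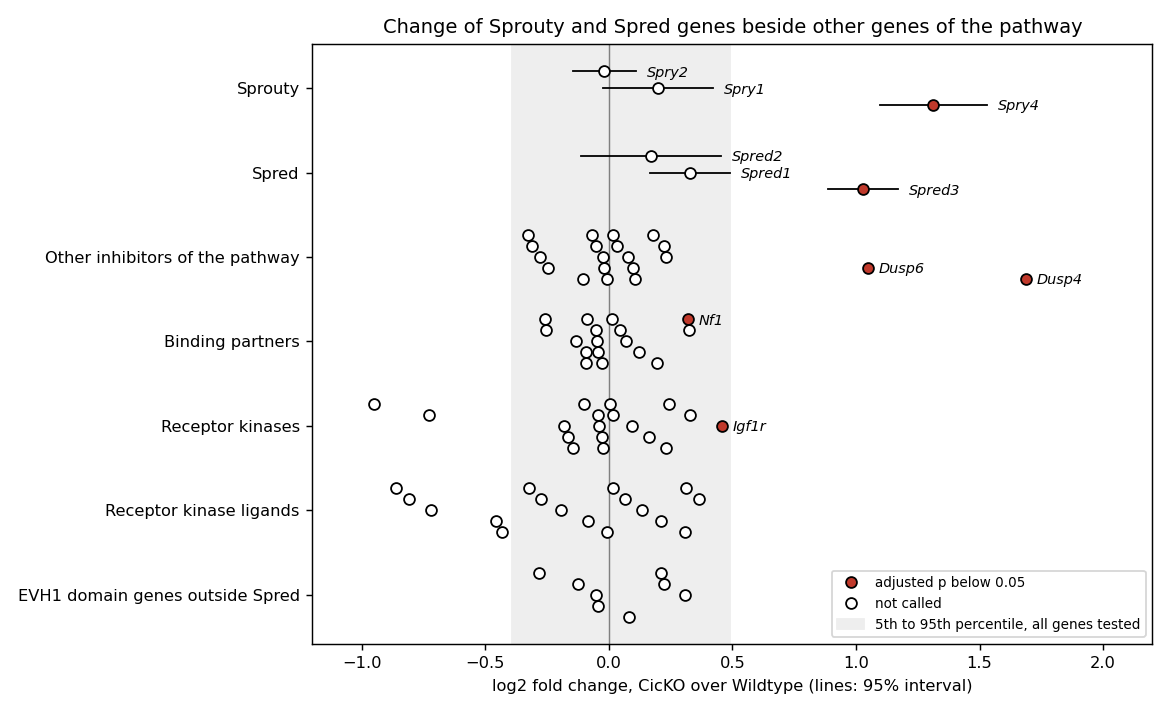
Log2 fold change of CicKO over Wildtype (horizontal axis) for each tested gene of the Sprouty and Spred families and of 5 lists of related genes, with red points for genes called at an adjusted p below 0.05; the grey band spans the 5th to 95th percentile of all genes tested, from -0.39 to 0.49. Spry4 (1.31), Spred3 (1.03), Dusp4 (1.69) and Dusp6 (1.05) lie to the right of the band, and the called genes Igf1r (0.46) and Nf1 (0.32) lie inside it.

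The genes whose profiles lay nearest to Spry4 and Spred3 were all called higher in CicKO libraries, as the measure favours. Profiles of log2 CPM were set to 0 at the Wildtype mean, and the root mean square difference over 7 libraries was taken against 13986 other genes that averaged 1 CPM or more. Nearest to Spry4 was the signalling adaptor gene Shc4 (0.168 log2 units; 66.0 CPM in CicKO and 24.4 CPM in Wildtype libraries), followed by the receptor gene Gpr3 (0.174), Cd164l2 (0.193), 6430531B16Rik (0.204) and 3110035E14Rik (0.211). Nearest to Spred3 was Dusp6 (0.108), followed by Arhgap24 (0.113), Sipa1l2 (0.144), the neuropeptide precursor gene Vgf (0.148) and Tnfrsf11b, the gene of osteoprotegerin (0.156). The promoter windows of Shc4 and Dusp6 held a CIC octamer, as did that of Spred3, and those of Gpr3, Cd164l2, Sipa1l2, Nf1 and Igf1r did not. No window was read for Spry4, Dusp4 and 5 of the 10 nearest genes.

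Of 86 markers of 11 cell types, edgeR called 5 lower (5.81%, against 0.828% of all genes) and 0 higher. DESeq2 called 11 lower (12.8%, against 2.97%) and 3 higher (3.49%, against 4.01%). Limma-voom called 5 lower (5.81%, against 0.828%) and 1 higher (1.16%, against 1.18%). At an unadjusted p below 0.05, 15 were lower (17.4%, against 8.16%) and 6 higher (6.98%, against 8.06%). In whole tissue, fewer cells of a type and less RNA per cell cannot be told apart. Summed levels overlapped between groups for 10 of these 11 lists, and no listed marker was at 0 in all libraries. The exception was the 8 oligodendrocyte precursor markers, which summed to between 199 and 278.10 CPM in CicKO and between 278.23 and 326 CPM in Wildtype libraries, with 1 of 8 called lower (Olig1, log2 fold change -0.39). Of that sum 43.6% to 53.4% was Bcas1, which had -0.56 (edgeR adjusted p = 0.151). Pdgfra (0.02) and Cspg4 (0.13) were positive, and the other precursor markers were negative. Of the 8 Bergmann glia and astrocyte markers 2 were called lower (Gdf10, -0.59, and Aqp4, -0.42), and 6 of 8 were lower in every CicKO than in every Wildtype library (8.36% of all genes were), with a median log2 fold change of -0.24. Gfap, the astrocyte filament gene, had -0.82 and was not called by edgeR (adjusted p = 0.0964). The sum of these 8 markers, 5741 to 5961 CPM in CicKO and 5334 to 6196 CPM in Wildtype libraries, overlapped; 40.4% to 61.7% of it was Aldoc, which had 0.27 (adjusted p = 0.363). Of the 8 oligodendrocyte markers Cldn11 was called lower (-0.83), 2 did not overlap, each lower in CicKO, and all 8 had negative log2 fold changes (median -0.31), against 48.8% of all genes positive. Other lists were similarly uniform in sign. All 8 Purkinje cell markers (median 0.18), all 8 endothelial markers (0.20) and 10 of 11 choroid plexus markers were positive. All 8 meningeal and fibroblast markers were negative (-0.25). The choroid plexus log2 fold changes had SEs of 0.949 to 2.81, so their signs carry little weight. The median of the precursor markers was -0.29. Of the 6 interneuron markers Gad2 was called lower (-0.25), but 3 of 6 had positive log2 fold changes and the median was -0.07. In that list 2 did not overlap with CicKO higher and 2 with CicKO lower (7.06% and 8.36% of all genes). The part of these cell types in the changes of Spry4 and Spred3 was not tested. Choroid plexus markers set apart CicKO 3 and Wildtype 3; with both left out, log2 fold changes were 1.26 for Spry4 (adjusted p = 0.000402) and 0.99 for Spred3 (0.00136). The no-feature share, the part of all entries assigned to no gene, was 18.2% to 19.0% in CicKO and 16.0% to 18.6% in Wildtype libraries, and with it as a covariate both genes were called, at log2 fold changes of 1.28 and 0.91.

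**Figure D5:**
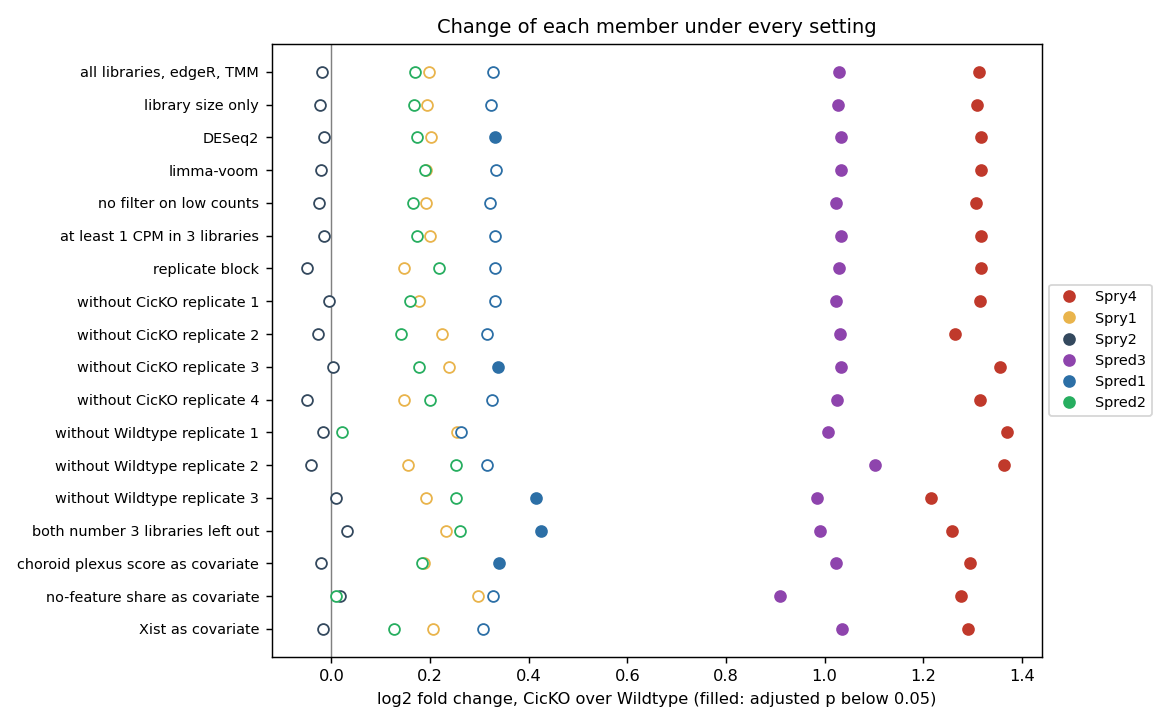
Log2 fold change of CicKO over Wildtype (horizontal axis) for the 6 tested genes under each setting (rows), filled where the adjusted p was below 0.05. Spry4 (1.22 to 1.37) and Spred3 (0.91 to 1.10) are filled in every row, Spred1 in 5 rows, and Spry1, Spry2 and Spred2 in none.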

How the data were processed

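The authors deposited raw counts for gene symbols in 1 file per library, not normalized. The tools named in the submitters' processing notes are STAR 2.5.3a, HTSeq and DESeq2, on build mm10. Annotation, strand setting and read filters are not given in those sources. The 5 HTSeq summary rows stayed out of library sizes and tests; reads assigned to no feature were 16.0% to 19.0% of all entries.

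Counts were analysed in R 4.3.3 with edgeR 4.0.16: filterByExpr, TMM scaling and the robust quasi-likelihood F test on genotype alone, with Benjamini-Hochberg adjustment over all 16905 genes tested. SE is the log2 fold change over the root of F. Alternatives were DESeq2 1.42.0, limma-voom (limma 3.58.1), other scaling and filters, covariates, a replicate block and left-out libraries. Paralog differences used log2 CPM with a prior count of 2. Coordinates and exon lengths are from GENCODE M21 (GRCm38, the assembly called mm10). The fit was also run on simulated counts with independent libraries and the same dispersion for every gene. Those settings differ from these data, so that run does not bear on how reliable the calls here are.

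Within a group, any pair of libraries differed by 18.5 to 157 times what sampling alone gives, and each counts as 1 replicate. Floors of counts cover counting error only, since reads amplified without molecular identifiers do not each stand for a molecule. After each gene's group mean of log2 CPM was subtracted, same-numbered libraries had correlations of 0.145, 0.288 and 0.713 across genes. All were above the limit of 0.1 for pairing. Libraries that differ in number also passed it: Wildtype 2 reached 0.319 with CicKO 1 and 0.297 with CicKO 4, and Wildtype 1 reached 0.187 with CicKO 4. Only for Wildtype 3 was the CicKO library of the same number the closest. The members and lists were chosen with earlier results of these data known. All 7 members, Cic, called genes or the 3 smallest p-values of each list, and 5 nearest profiles per called member were eligible to be named; other genes named, such as Grb2 or the cell markers, were chosen after their values were seen.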

Additional observations from a re-analysis of the deposited data

How the results depend on the processing

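Under 17 alternatives Spry4 and Spred3 were called higher each time, and Spry1 and Spred2 were positive and not called each time. Spred1 passed in 5: DESeq2 (adjusted p = 0.000833), the choroid plexus score in the fit (0.0280), and 3 sets of left-out libraries, so that 2 or 3 members were called. The log2 fold change of Spry2 turned positive without CicKO 3 (0.00377) or Wildtype 3 (0.00913), between extremes of -0.0497 and 0.00913 over single left-out libraries, without both (0.0320) and with the no-feature share in the fit (0.0171). The number of all genes called was 352; it was 1180 with DESeq2, 681 with the choroid plexus score, 58 with the no-feature share and 104 with Xist in the fit, and 86 to 842 over single left-out libraries; the cause was not tested. The replicate block called 514 genes and changed no call of a member (Spry4 log2 fold change 1.32, Spred3 1.03). Paralog differences kept their sign under every alternative run, with Spry4 minus Spry2 at 1.20 to 1.41 and Spred3 minus Spred1 at 0.57 to 0.78 over single left-out libraries; with 1 library omitted too few splits remain to pass 0.05, so these are values without a test. The tested members had at least 820 counts per library.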
